A study of Saccharomyces cerevisiae with 593 samples.

Results

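The arrays described here followed yeast cells that lack both regulatory subunits of casein kinase 2, encoded by CKB1 and CKB2, after transfer to KCl. Arrays were chosen by their titles, which name the ckb1 ckb2 double deletion in KCl, and they number 16 of the 593 arrays of the collection, or 8 of its 311 array identifiers. An identifier is a pair of RNA samples, here always hybridised in both dye orientations. The 8 identifiers form 2 courses of 4: one sets the deletion in KCl over the untreated deletion after 5, 10, 20 and 40 min, and the other sets the deletion over wild type (wt), both in KCl, after 5, 10, 15 and 20 min.

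Casein kinase 2 is a serine and threonine kinase built from catalytic subunits, CKA1 and CKA2, and the regulatory subunits CKB1 and CKB2. In budding yeast it phosphorylates factors of transcription by all nuclear RNA polymerases, ribosome production and mRNA processing, and strains without its regulatory subunits are known to be sensitive to some salts. A high concentration of KCl is an osmotic shock: it activates the HOG kinase pathway, which raises glycerol production, and it is known to lower the messages of ribosome production for a time.

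Each array compared total RNA of 2 cultures of Saccharomyces cerevisiae on oligos designed for the study of splicing, with 1457 named oligos for 982 genes. The treated deletion cells were in 1 M KCl, and their controls were mock-treated deletion cells of the same time or wt cells in 1 M KCl of the same time. Other groups used for comparison were wt in 1 M KCl over mock-treated wt (15 identifiers, 3 at 5 min and 4 at each of 10, 20 and 40 min), and the deletion over wt in 50 mM 3-aminotriazole (3-AT, which blocks histidine synthesis; 4 identifiers), in 200 ng/mL rapamycin (which blocks TOR signalling; 4 identifiers) and before treatment (1 identifier). Wt cells in 1 M KCl with 20 uM of the kinase inhibitor TBB over wt cells in KCl alone gave 4 more. For the mating type genes, COS8 and SPL2, a single ckb1, a single ckb2 and an rrp6 deletion over wt were also used. These gave 1 identifier each before or without treatment, and rrp6 over wt, both in 1 M KCl for 20 min, gave 1 more. The labels name no allele, parent strain or mating type, and they do not say whether replicates were separate cultures, so the errors may be technical. CKB1, CKB2, CKA1 and CKA2 have 0 oligos among the named ones, so the deletion could not be checked on the arrays. The titles sort the arrays into sets, which are given letters here.

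Values are log2 ratios, averaged over the 6 spots of an oligo and over the dye orientations. Each time of the deletion has 1 identifier, so its error was taken from the replicated groups of the collection in 1 fit with limma, and an oligo is called where its adjusted p is under 0.05. Between dye orientations of the deletion over its untreated control, Pearson's r over oligos was 0.17, 0.30, 0.37 and 0.01 at 5, 10, 20 and 40 min, which makes the 40 min value the least repeatable. For the deletion over wt in KCl, r between orientations was 0.48, 0.47, 0.22 and 0.43 at 5, 10, 15 and 20 min. The 20 min identifier of that course stood apart: over the 1449 oligos outside the mating type genes described later, it correlated with the 5 and 10 min identifiers at r of 0.00 and -0.05, against 0.70 between 5 and 10 min. Where leaving out one of these times moved a count by over 1.5 times, changed the call of a named oligo or turned a list median that is printed below, the value without it is given.

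In the deletion, KCl lowered RPP0, SPT5, NMD2 oligo 3 and NOP1 the most and raised DTD1 oligo 3, RPL41A and RPL38 the most among oligos of named protein genes. Averaged over 5 to 40 min, 56 of 1457 oligos were called (3.84%), of which 41 fell (2.81%) and 15 rose (1.03%). At an unadjusted p under 0.05 there were 225. The largest fall was that of RPP0, the P0 protein of the ribosomal stalk, and the largest rise was that of DTD1 oligo 3, for an enzyme that clears D-amino acids from tRNA. Of the 56 called oligos, 55 had the same sign at all 4 times, and the exception was NAB2, an RNA-binding protein of the nucleus, at 0.15 at 40 min against -0.53 to -0.74 before.

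RPP0 stood at -1.61, -1.64, -1.82 and -1.11 at 5, 10, 20 and 40 min, with a mean of -1.55 ± 0.28 (SE; limma adjusted p = 0.000389). It was the most strongly lowered oligo of the average, lowest at 20 min and highest at 40 min. SPT5, a factor of transcription elongation, was at -1.08, -1.09, -1.22 and -0.84, with a mean of -1.06 ± 0.20 (SE; limma adjusted p = 0.000522). NOP1, the fibrillarin that methylates ribosomal RNA, was at -1.03, -1.05, -1.23 and -0.67, with a mean of -0.996 ± 0.29 (SE; limma adjusted p = 0.0246). In each of these messages the 40 min value was the closest to 0. The same held for 42 of the 56 called oligos, and 26 of the 56 had their largest size at 20 min. The standard deviation over all 1457 oligos was also smallest at 40 min (0.26) and largest at 20 min (0.32). The share of all oligos with either pattern was not counted.

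Among the other lowered oligos, NMD2 oligo 3, one of 4 oligos for a factor of nonsense-mediated decay, fell to -1.32, -1.18, -1.27 and -0.46 (mean -1.06 ± 0.21, limma adjusted p = 0.000835). NMD2 oligos 1, 2 and 4 averaged -0.15, 0.03 and 0.19 and were not called. DIB1, a protein of the U4/U6.U5 small nuclear ribonucleoprotein, averaged -0.94. MSL5, the branch point binding protein, averaged -0.90, and GSP1, the yeast Ran GTPase of nuclear transport, averaged -0.89. AZF1, a zinc finger transcription factor, averaged -0.89. DIB1, MSL5 and AZF1 lay between -1.18 and -1.003 at the first 3 times and between -0.45 and -0.34 at 40 min, while GSP1 stayed between -1.04 and -0.77 throughout.

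Raised oligos moved less. DTD1 oligo 3 was at 0.73, 0.83, 0.85 and 0.77, with a mean of 0.79 ± 0.21 (SE; limma adjusted p = 0.0126). RPL41A and RPL38, small proteins of the large ribosomal subunit, averaged 0.74 and 0.70, and their highest values, 1.08 and 0.87, were those at 40 min. CAF20, which binds the cap-binding factor eIF4E, averaged 0.56, GIM5 oligo 1, for a subunit of prefoldin, 0.55, and GET4, which takes part in the insertion of membrane proteins, 0.53. ERV41 oligo 3, for a protein that cycles between endoplasmic reticulum and Golgi, averaged 0.53, and LSM7 oligo 1, for a subunit of the Lsm ring, also 0.53. All of these oligos were above 0 at every time. RPL41A was at 0.62 and not called without 40 min (limma adjusted p = 0.0578).

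**Figure D1:**
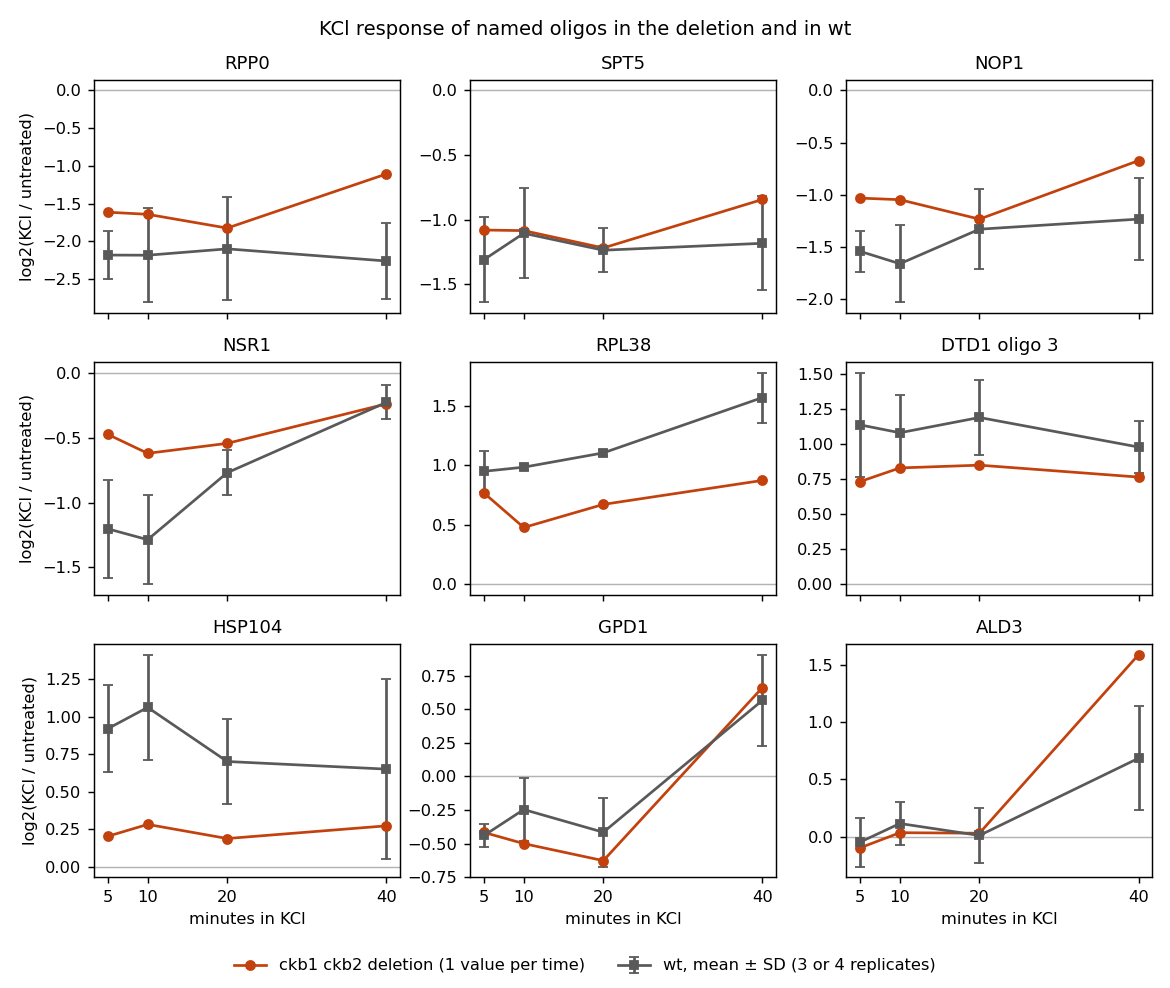
KCl response of 9 named oligos over minutes in KCl, as log2(KCl / untreated). Orange points are the single deletion values, and grey squares with bars are the wt mean ± SD of 3 or 4 replicates. RPP0, SPT5, NOP1 and NSR1 lie below 0 in both strains, RPL38 and DTD1 oligo 3 above 0, and GPD1 crosses 0 between 20 and 40 min in both.

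By function, the called oligos were spread over many groups, and the counts below stand beside 15 rises (1.03%) and 41 falls (2.81%) among all 1457 oligos. Of 330 ribosomal protein oligos, 3 rose and 8 fell, near those shares, with a median of 0.05 against -0.00 over all 1457. Of the called ones RPL41A was the highest and RPP0 the lowest. Of 100 oligos for splicing factors, 2 rose (LSM7 oligo 1 at 0.53 and SMX2, an Sm protein, at 0.40) and 4 fell (DIB1, MSL5, SME1 at -0.65 and CWC23 at -0.52), with a median of 0.10. Of 51 oligos for mRNA decay and export, 6 fell and none rose. These were NMD2 oligo 3, the poly(A)-binding protein PAB1 at -0.66, the Ccr4-Not scaffold CDC39 at -0.63, the export adaptor YRA1 at its oligo 3 at -0.59, NAB2 at -0.46, and SKI2, a helicase of the exosome's cofactor, at -0.39. YRA1 oligos 1 and 2 were at 0.11 and -0.02 and were not called, nor were the other NMD2 oligos. The median of the mRNA decay and export list was 0.03.

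Of 45 oligos for ribosome biogenesis, NOP1 alone fell and none rose, and the median was 0.12. None of 20 oligos for RNA polymerase I and III was called (3 at an unadjusted p under 0.05; median 0.07). Among 62 tRNA genes, 3 rose and 4 fell, with a median of -0.04. All 7 belonged to the 38 nuclear tRNA genes, where values ran from -0.92 to 1.20, while the 24 mitochondrial ones ran from -0.42 to 0.20. YNCG0028W at -0.92 was the lowest called and YNCA0006C at 0.76 the highest. YNCC0008W averaged -0.90, and SUF10, a proline tRNA gene, averaged 0.60. Oligos for tRNA genes that have near-identical copies cannot be assigned to 1 gene with certainty.

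Genes of the osmotic response were mostly below 0 in the averages. Of 14 oligos of that list, 12 lay below 0, beside 741 of all 1457, and the median was -0.21 (-0.19 without 40 min). In wt 10 of the 14 lay below 0, with a median of -0.14, and SMP1 was at -0.94. In the deletion SMP1, a MADS-box transcription factor of the osmotic response, was the called one, with a mean of -0.88. GPD1, the glycerol 3-phosphate dehydrogenase that feeds glycerol synthesis, was at -0.42, -0.50 and -0.63 up to 20 min and at 0.66 at 40 min. ALD3, a stress-induced aldehyde dehydrogenase, was at -0.10, 0.03, 0.03 and 1.59. Both genes thus had their highest value at 40 min, the least repeatable time, and neither was called there. Neither average was called (-0.22 and 0.39, limma adjusted p = 0.84 and 0.78). CIN5, a basic leucine zipper factor of salt tolerance, was at -0.42, -0.07, 0.15 and 0.68, in the same order over time.

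HOG1, the kinase of the osmotic pathway, averaged -0.11, and FPS1, the glycerol channel, -0.34 (limma adjusted p = 0.098). ENA1, the sodium pump, was at -0.01, -0.18, -0.13 and 0.22 and was not called. None of 17 oligos for cation transport, 7 for general stress, 11 for chaperones, 14 for the respiratory chain, 13 for amino acid synthesis and 11 for mating type was called, with 3, 0, 0, 2, 0 and 1 of them at an unadjusted p under 0.05. Of 22 oligos for factors linked to casein kinase 2, the 3 that fell were SPT5, NOP1 and YRA1 oligo 3, and the median was -0.05. YRA1 oligos 1 and 2 were not called, at 0.11 and -0.02. NSR1, a nucleolar protein of the same list, was at -0.48, -0.62, -0.55 and -0.24 and was not called (limma adjusted p = 0.31). RRP6, a nuclear exosome subunit, averaged 0.16, and the 3 oligos of HAC1, the factor of the unfolded protein response, averaged -0.07, -0.19 and -0.08.

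At single times, limma called 9 oligos at 5 min (0.618%), 21 at 10 min (1.44%), 44 at 20 min (3.02%) and 1 at 40 min (0.0686%), which was CDC39 at -0.92. The count of the average depends on the times and on how the error is set: without 40 min it was 78, of which 52 were among the 56, and without 20 min it was 32. Without 20 min NOP1 (-0.92), SUF10 (0.49) and GIM5 oligo 1 (0.52) were not called, and without 10 min GIM5 oligo 1 (0.53) and YRA1 oligo 3 (-0.50) were not. It was 291 when identifiers of 1 course were treated as independent, 245 with the array set as the block and 36 when 7 identifiers of another array set, whose direction could not be settled, were added to the fit as labelled.

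Over the values of all other groups, wt in KCl included, 23 oligos correlated above 0.8 with NMD2 oligo 3, which was singled out for its fall in the deletion. In wt in KCl that oligo averaged -1.29, so the choice favours oligos that fall in KCl. As a description only, all 23 lay below 0 in the deletion, from -0.94 to -0.28. Among them limma called 12, beside falls in 2.81% of all oligos, a share that the choice of the 23 makes no fair background. Their median was -0.68, -0.75, -0.69 and -0.28 at 5, 10, 20 and 40 min. In wt the median over the 4 times was -0.76, against -0.60 in the deletion. The 12 include DIB1, MSL5 and SME1, which are 3 of the 4 splicing factor oligos that fell, the tRNA genes SUP61 and YNCG0028W, and AZF1 and SMP1. Without the 23 and NMD2 oligo 3, 37 oligos were called.

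The wt course asked whether the response depends on the regulatory subunits. Averaged over the same times, wt in KCl gave 718 called oligos (49.3%), of which 372 rose and 346 fell, from 15 identifiers. The median SE of these averages was 0.084 in wt and 0.175 in the deletion, so the counts of calls differ in precision. All 56 oligos called in the deletion were called in wt with the same sign, which is 7.8% of the wt calls. Over the 1457 oligos the averages of both strains correlated at r = 0.87 (Spearman's rho 0.86), as a description across oligos of 1 array design. The slope of the deletion on the wt mean of the same time was 0.63, 0.67, 0.77 and 0.58 at 5, 10, 20 and 40 min, and that of single wt identifiers on the mean of wt identifiers from other array sets ran from 0.64 to 0.80, 0.66 to 0.99, 0.67 to 1.18 and 0.73 to 0.99 at the same times. The deletion's slope was thus below that of every wt identifier at 5 and 40 min and within their range at 10 and 20 min.

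**Figure D2:**
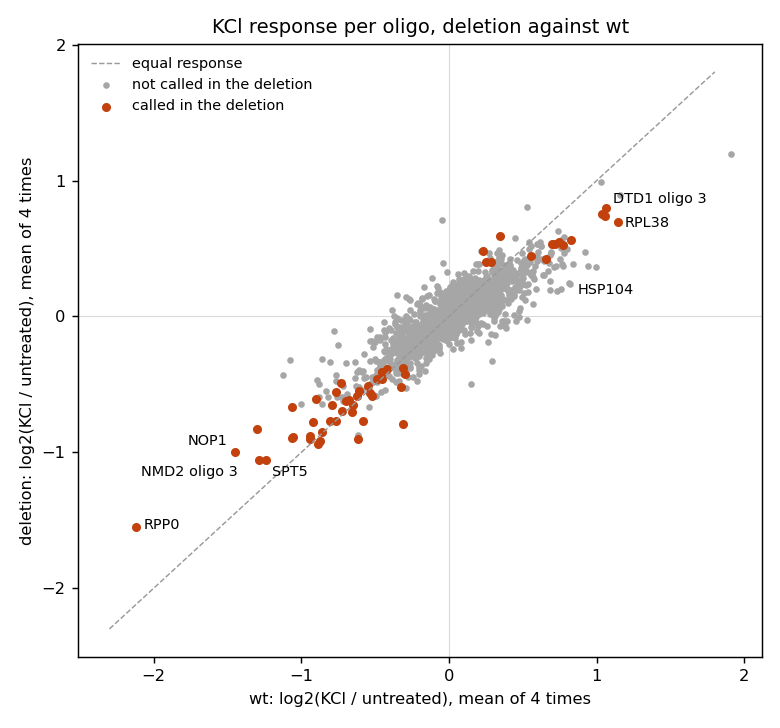
KCl response of each of 1457 oligos, as the mean log2(KCl / untreated) of 5, 10, 20 and 40 min, in the deletion (y axis) against wt (x axis). Orange points are the 56 oligos called in the deletion, and the dashed line marks equal response. The averages of both strains correlate at r = 0.87 over the oligos, and RPP0 lies at -1.55 against -2.12.

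The standard deviation over oligos was 0.29, 0.30, 0.32 and 0.26 at 5, 10, 20 and 40 min in the deletion, while in the single wt identifiers it ran from 0.33 to 0.48. The wt arrays lie in array sets other than that of the deletion, with no set in common, so strain and array set cannot be told apart in this comparison. Scaling all arrays to the same median absolute deviation gave 114 called oligos in the deletion.

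The test of the difference between the strains called no oligo on average: 0 of 1457 (0%) had a limma adjusted p under 0.05, and 45 had an unadjusted p under 0.05. The 95% interval of a difference, before any adjustment, had a median half-width of 0.38, so differences below that size could not be resolved for most oligos. A call after adjustment over the 1457 oligos needs more: TUF1, described below, had a difference of -0.62 with an interval of -1.02 to -0.22 and was not called. The 0 calls thus do not show that differences above 0.38 were absent. RPP0 was at -2.18 ± 0.31 (SD, n = 3), -2.18 ± 0.62, -2.10 ± 0.68 and -2.26 ± 0.50 (n = 4 each) in wt, and the deletion lay above every wt replicate at 5 and 40 min and within their range at 10 and 20 min. The averaged difference of deletion minus wt was 0.57 with an interval of -0.05 to 1.19. For SPT5 the interval was -0.26 to 0.62, and for DTD1 oligo 3 it was -0.73 to 0.20. RPL38 was at 0.95 ± 0.17 (SD, n = 3), 0.98 ± 0.03, 1.10 ± 0.02 and 1.57 ± 0.21 (n = 4 each) in wt, above the deletion in every replicate at all 4 times, and its difference was -0.44 with an interval of -0.85 to -0.04 before any adjustment. In all, 63 of the 1457 oligos had a deletion value outside the range of the wt replicates on the same side at all 4 times, 28 above and 35 below. How many of all oligos lay outside that range at single times was not counted. A single deletion value can often lie outside so few replicates, so the positions given here and below only describe the named oligos.

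HSP104, a disaggregase of the heat shock response, was at 0.20, 0.28, 0.19 and 0.27 in the deletion. In wt it was at 0.92 ± 0.29 (SD, n = 3), 1.06 ± 0.35, 0.70 ± 0.28 and 0.65 ± 0.60 (n = 4 each). The deletion lay below every wt replicate at 5, 10 and 20 min and within their range at 40 min. The averaged difference was -0.58 with an interval of -1.85 to 0.68 and was not called. GPD1 in wt was at -0.44 ± 0.09 (SD, n = 3), -0.25 ± 0.24, -0.42 ± 0.26 and 0.57 ± 0.34 (n = 4 each), and its course overlapped that of the deletion at each time. NSR1 in wt was at -1.20 ± 0.38 (SD, n = 3), -1.29 ± 0.34, -0.77 ± 0.18 and -0.23 ± 0.13 (n = 4 each). Its deletion values were above all wt replicates up to 20 min and within their range at 40 min, and the averaged difference of 0.42 was not called.

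Ribosome biogenesis was the list whose medians lay farthest apart on the upper side. Its median was 0.12 in the deletion and -0.18 in wt, where 18 of 45 oligos fell and 6 rose, beside 23.7% and 25.5% of all oligos. The difference was above 0 for 40 of the 45 oligos, against 660 of the 1457 oligos, and the median difference was 0.19 against -0.02. The deletion's median was 0.12 after centring and after scaling but -0.01 in the arrays with the treated RNA in Cy5, where the wt median was -0.40, and the wt median was 0.03 in those with the treated RNA in Cy3. The median difference was above 0 in each of these settings, from 0.09 to 0.28, and was 0.25 without 40 min. In the direct comparison of the strains in KCl, 29 of the 45 oligos lay above 0, with a median of 0.03 against -0.00 over all oligos. Without 20 min 26 did, with the same median to 2 decimals. None of the 45 differences passed the adjusted threshold and 3 had an unadjusted p under 0.05. By gene, DBP2, an RNA helicase, was at -0.36, -0.51, -0.30 and -0.10 at its oligo 3 in the deletion and at -1.31 ± 0.60 (SD, n = 3), -1.49 ± 0.35, -1.01 ± 0.33 and -0.33 ± 0.34 (n = 4 each) in wt. The deletion lay above all wt replicates at the first 3 times. DBP2 was singled out after its values were seen.

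For the respiratory chain list, whose 14 oligos come from 6 genes, the deletion's median lay below that of wt. In wt 9 of its 14 oligos rose and 4 fell, beside 25.5% and 23.7% of all oligos, with a median of 0.38, and in the deletion the median was 0.08. The deletion's median was -0.07 with the treated RNA in Cy5 and 0.18 with it in Cy3, where the wt medians were 0.25 and 0.36. The median difference was -0.26, and -0.32 without 40 min, and ran from -0.34 with Cy5 to -0.16 after scaling. In the direct comparison of the strains in KCl 10 of the 14 oligos lay above 0, with a median of 0.06, which was -0.03 with Cy5 and 0.24 with Cy3, and QCR9 oligo 3 was at 0.30. QCR9 oligo 3, for a subunit of the cytochrome bc1 complex, was at 0.44, 0.20, 0.09 and 0.71 in the deletion and at 0.96 ± 0.32 (SD, n = 3), 0.87 ± 0.35, 1.04 ± 0.12 and 1.04 ± 0.14 (n = 4 each) in wt. The deletion was below every wt replicate at all 4 times. TUF1, the mitochondrial elongation factor, was at -0.00, -0.29, -0.53 and -0.48 against 0.43 ± 0.06 (SD, n = 3), 0.42 ± 0.09, 0.32 ± 0.08 and -0.08 ± 0.14 (n = 4 each) in wt, also below every replicate. The difference was -0.62 ± 0.20 (SE) for TUF1 and -0.63 ± 0.30 (SE) for QCR9 oligo 3, and neither passed the adjusted threshold. For the other QCR9 oligos it was 0.09 at oligo 1 and -0.48 at oligo 2, and QCR10 oligo 2 was at 0.22. In the list it was below 0 for 10 of the 14 oligos and above 0 for 4, against 797 and 660 of all 1457. These genes were chosen after their values were seen.

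**Figure D3:**
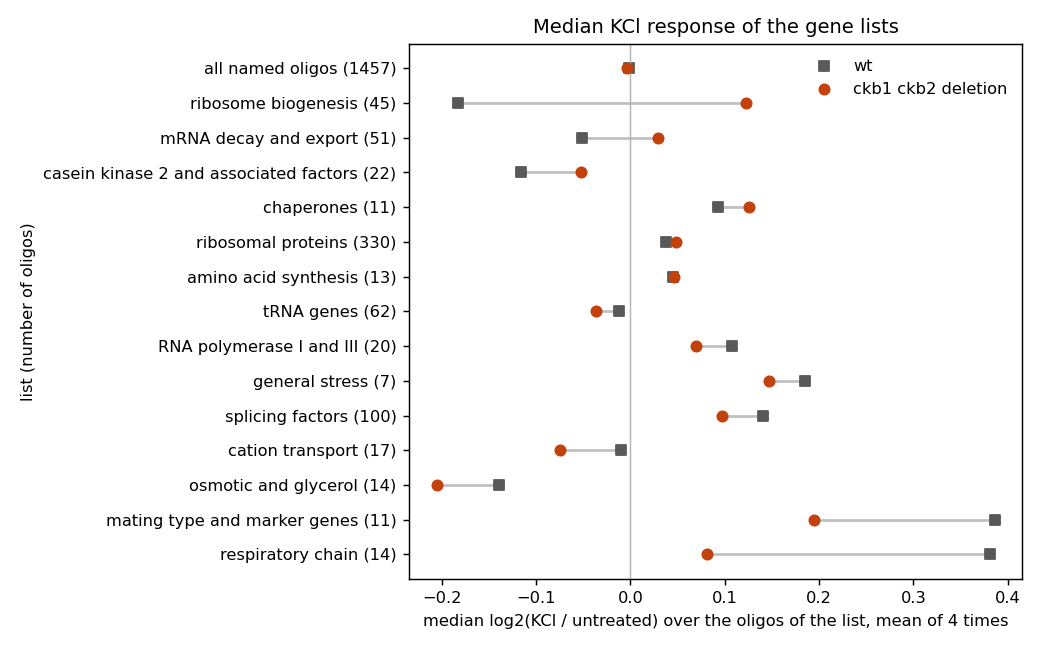
Median log2(KCl / untreated) over the oligos of each gene list, as the mean of 5, 10, 20 and 40 min, in the deletion (orange circles) and in wt (grey squares), with the number of oligos in brackets. The strains lie farthest apart in ribosome biogenesis, at 0.12 and -0.18, and in the respiratory chain, at 0.08 and 0.38. Without 40 min the general stress median of the deletion turned from 0.15 to -0.01 and the chaperone median of wt from 0.09 to -0.02.

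The calls of this comparison depend on how the error is set. With the array set as the random block, limma called 36 differences, 14 higher and 22 lower in the deletion. The 14 higher ones were DBP2 oligos 1 and 3, HCA4, RRS1, PRP43, NSR1, DBP9, RRP4, AIR1, PAB1, RPL4B, RPS15, NUP1 and INO2. Of the 22 lower ones, the lowest in the reported fit were QCR9 oligo 3, TUF1, RPL42A oligo 1, MATALPHA2 and HMRA2. With no block there were 14, of which 9 were shared with the 36. Without 40 min the reported fit also called 0. Which of these settings describes the error of the deletion course, with 1 identifier per time, was not tested.

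At single times the difference was called for 0 oligos at 5, 10 and 20 min (0% each) and for 2 at 40 min (0.137%). Both were lower in the deletion. HMRA2 was at 0.13 in the deletion at 40 min and at 1.14 ± 0.12 in wt (SD, n = 4), a difference of -1.02 (limma adjusted p = 0.0175). MATALPHA2 was at 0.25 and at 1.25 ± 0.18 (SD, n = 4), a difference of -0.998 (limma adjusted p = 0.0369). In wt, MATALPHA2 was also above 0 at the earlier times, at 0.70 ± 0.25 (SD, n = 3), 0.60 ± 0.24 and 0.50 ± 0.08 (n = 4 each), and in the deletion it stayed between 0.11 and 0.25. These are cassette genes of the mating type loci that share sequence, so their oligos may read the same RNA, and they were measured at very different levels in the strains, as described next. Over the tests of the 4 times, 0.0343% were called. This share was 0 with all arrays scaled to the same median absolute deviation, 0.0172% without wt replicate 1 or replicate 2, and 0.0858% with wt array set A alone.

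Between 5 and 40 min the deletion's response changed in no oligo by the adjusted test: 0 of 1457 (0%), with 80 at an unadjusted p under 0.05. In wt, 234 changed (16.1%), 108 upward (7.41%) and the rest downward (8.65%). The median SE of the change was 0.247 in the deletion and 0.136 in wt, so these counts were not made with equal precision. The standard deviation of the change over oligos was 0.25 in the deletion and 0.28 in wt. The difference between the strains in that change was called for 0 of 1457 (0%), with 17 at an unadjusted p under 0.05. ALD3, at -0.10 and 1.59, and GPD1, at -0.42 and 0.66, were among the messages whose change in the deletion did not pass. Of the 62 tRNA genes 55 were higher at 40 than at 5 min in the deletion, beside 753 of all 1457 oligos, and wt was not counted. Their median change in the deletion was 0.20 against 0.01 over all oligos, and none passed (11 at an unadjusted p under 0.05). At 40 min the dye orientations had the lowest agreement, and its part in these values was not tested. In the KCl groups and strain comparisons alone, 8 oligos were called for the deletion's change, and 23 in the arrays with the treated RNA in Cy5.

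In the direct comparison of the strains in KCl, the largest differences were those of mating type genes, while 14 of the 22 called oligos lay outside that list. Averaged over 5 to 20 min, 22 of 1457 oligos were called (1.51%), of which 7 were higher (0.48%) and 15 lower (1.03%) in the deletion, and 78 had an unadjusted p under 0.05. Genes of alpha cells, which make the alpha pheromone and the receptor for the a pheromone, were lower, and those of the a pheromone were higher. Of the 11 oligos of the mating type list, 8 were called, with a median of -1.39 against -0.00 over all oligos, and the other 3 were those of HMRA1.

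MF(ALPHA)1, the main gene of the alpha pheromone, was at -8.15, -8.60, -6.84 and -5.53 at 5, 10, 15 and 20 min, with a mean of -7.28 ± 0.25 (SE; limma adjusted p = 7.51e-52). STE3, the receptor of alpha cells, was at -5.72, -5.88, -4.38 and -4.08 and averaged -5.01. MATALPHA1, the activator of alpha-specific genes, was at -4.41, -3.69, -2.41 and -2.98 and averaged -3.37. Each of these was called at every time. On the other side, MFA2 was at 5.89, 5.72, 3.08 and 3.94 and MFA1 at 5.35, 5.01, 3.51 and 2.70, with means of 4.66 and 4.14. Both encode the a pheromone.

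MF(ALPHA)2, the minor alpha pheromone gene, was at -4.54, -4.01, -1.48 and -0.43, with its smallest difference at 20 min. HMRA2 averaged -1.68 and MATALPHA2 -1.39. FUS3, a kinase of the pheromone pathway that is not on that list, averaged -0.83 ± 0.20 (SE; limma adjusted p = 0.00425).

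The same pattern was present without KCl. Before treatment, MF(ALPHA)1 was at -5.22 and -4.88 in the 2 dye orientations, STE3 at -3.43 and -3.46, MFA2 at 3.63 and 3.58, and MFA1 at 2.83 and 2.55. This identifier gave 22 called oligos (1.51%), 10 higher (0.686%) and 12 lower (0.824%), and 9 of the 22 called in KCl were among them. In 3-AT the means over the same times were -7.26 for MF(ALPHA)1 and 5.50 for MFA2, and in rapamycin they were -6.90 and 5.13. Arrays of other deletions over wt gave it too: MF(ALPHA)1 was at -9.60 in ckb1, -5.93 in ckb2 and -5.64 in rrp6 before or without treatment, each from 1 identifier. With TBB, which was given to wt cells, it averaged -0.20. The deletion and the mating type genes therefore differ from wt together, and a difference in mating type cannot be told apart from an effect of the deletion.

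**Figure D4:**
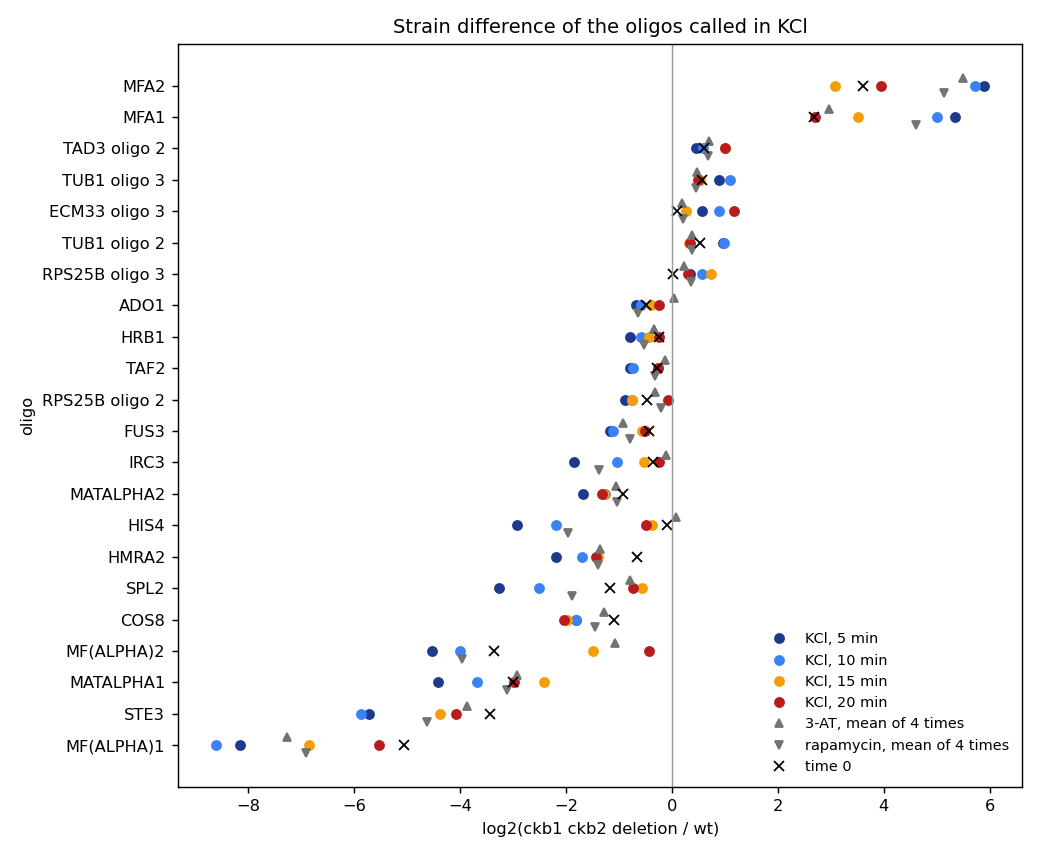
Log2(deletion / wt) of the 22 oligos called in KCl. Coloured circles are the 4 times in KCl, grey triangles the means in 3-AT and in rapamycin, and crosses the value at time 0. MF(ALPHA)1 lies at -5.05 or lower and MFA1 and MFA2 lie above 0 in every condition, and HIS4 lies at 0.07 in 3-AT and -1.96 in rapamycin.

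Outside the mating type list, 14 oligos were called, 9 lower and 5 higher. COS8, a subtelomeric membrane protein gene, was at -1.81, -1.80, -1.97 and -2.05 and averaged -1.91 ± 0.19 (SE; limma adjusted p = 5.7e-15). It was lower at time 0 as well, at -0.87 and -1.33 in the dye orientations, but was at 0.49 and -0.03 in rrp6 over wt without and with KCl. SPL2, known as a gene of the phosphate response, was at -3.27, -2.50, -0.57 and -0.74, and at -1.17 at time 0. It lay at -0.14 and 0.27 in rrp6. In the single deletions over wt, COS8 was at -0.40 in ckb1 and -0.76 in ckb2, and SPL2 at -0.86 and -0.28. Each of these values comes from 1 identifier, and their differences were not tested.

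HIS4, an enzyme of histidine synthesis, was at -2.92, -2.19, -0.37 and -0.49 and averaged -1.49 ± 0.36 (SE; limma adjusted p = 0.00565). In 3-AT it was at 0.07 and in rapamycin at -1.96. IRC3, a mitochondrial helicase, was at -1.84, -1.03, -0.52 and -0.25 and averaged -0.91. In 3-AT it was at -0.11 and in rapamycin at -1.37. Without 5 min neither HIS4 (-1.02) nor IRC3 (-0.60) was called, and without 10 min HIS4 (-1.26) was not. TAF2, a subunit of TFIID, HRB1, an RNA-binding protein, and ADO1, adenosine kinase, were lower by smaller amounts, with means of -0.52, -0.51 and -0.47.

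Higher in the deletion were TAD3 oligo 2, for a tRNA adenosine deaminase subunit, at 0.45, 0.58, 1.00 and 1.00, and ECM33 oligo 3, for a cell wall protein, at 0.57, 0.89, 0.27 and 1.18. TUB1, alpha-tubulin, was higher at oligo 3, at 0.88, 1.09, 0.52 and 0.49, and at oligo 2, with means of 0.75 and 0.65. Of RPS25B, a ribosomal protein, oligo 3 was higher at 0.49 and oligo 2 lower at -0.61. ECM33 oligo 3 was not called without 10 min (0.67) or without 20 min (limma adjusted p = 0.145), nor RPS25B oligo 3 without 10 min (0.46) or 15 min (0.40). No other ribosomal protein oligo of the 330 was called, and none of the 45 of ribosome biogenesis, 100 of splicing factors, 62 of tRNA genes or 22 linked to casein kinase 2 was.

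Single times gave 31 called oligos at 5 min (2.13%), 22 at 10 min (1.51%), 16 at 15 min (1.1%) and 20 at 20 min (1.37%). Called at all 4 times were COS8 and 7 oligos of the mating type list. Of the 22 called on average, 19 were larger at 5 and 10 min than at 15 and 20 min. The standard deviation over all 1457 oligos, the called ones included, was also larger early, at 0.49 and 0.46 against 0.37 and 0.38. The share of all oligos that were larger early was not counted. Without the 20 min identifier, 29 were called, 21 of them among the 22, and the one lost was ECM33 oligo 3. Without 5 min there were 14. With the mating type list left out, 11 were called, and with no block or the array set as block 73 or 62.

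GPD1 averaged 0.44, CIN5 0.63, ALD3 0.65, ENA1 -0.39 and HSP104 -0.02 in the deletion over wt in KCl, and none of these means was called. Their 20 min values were the lowest of the course: GPD1 was at 0.72, 0.65, 0.93 and -0.55, and ENA1 at -0.01, 0.42, -0.01 and -1.96. At single times CIN5 was called at 10 min, at 1.74 (limma adjusted p = 0.000941), and ENA1 at 20 min (limma adjusted p = 5.99e-08). RPP0, NOP1 and SPT5 were at 0.40, 0.39 and 0.23. RPL38 and RPL41A, which rose in the deletion's course, were at 0.59 and 0.50. None of these 5 was called. HAC1 oligo 1 was at 0.45 and was called, at 0.70, when 20 min was left out.

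Whether a strain difference is larger in KCl than in other treatments was tested against 3-AT and rapamycin of the same array set and times. No oligo was called: 0 of 1457 (0%), with 13 at an unadjusted p under 0.05. Paired by time, with the 4 times as the replicates, limma called 5 (adjusted p = 0.0416 each). DBP2 oligo 3 was higher in KCl by 0.54, and COS8, GAT1, RPS9A oligo 1 and TDH1 were lower, at -0.54, -0.53, -0.51 and -0.77. The times of 1 course are not independent replicates, and each treatment has 1 identifier per time. These 5 calls therefore do not measure the spread between cultures. In 3-AT 22 oligos were called (1.51%) and in rapamycin 19 (1.3%), and 12 were called in all 3 treatments. STE3, at -5.01 in KCl, -3.86 in 3-AT and -4.61 in rapamycin, had a difference of -0.78. The ribosome biogenesis list was above 0 in 40 of its 45 differences with a median of 0.14, against -0.01 over all oligos, where 669 of 1457 lay above 0. General stress genes lay below 0 in 7 of 7 with a median of -0.33, and none of either list passed. Without 20 min, 0 oligos were called, and the lists lay above 0 in 38 of 45 and below 0 in 5 of 7, with medians of 0.11 and -0.16.

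Against time 0, 8 differences were called (0.549%), 1 higher and 7 lower in KCl, and without 20 min there were 9. Of these, MF(ALPHA)1, STE3 and HMRA2 were mating type genes with lower ratios in KCl, by -2.23, -1.57 and -1.02. The other 5 rest on the time 0 value of 1 dye orientation or on orientations that differ, as the closing values show. Time 0 comes from another array set with 1 identifier, and its dye orientations correlated at r = -0.14 over oligos. At time 0 the deletion was above wt in 11 of 11 chaperone oligos, with a median of 0.44. It was also above wt in 7 of 7 of general stress, with a median of 0.56, beside 703 of all 1457 oligos. The 2 lists share HSP104, SSA3 and SSA4. Ribosome biogenesis lay below wt in 41 of 45 oligos, with a median of -0.26, against -0.01 over all 1457. None of these lists had a called member.

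Loss of the regulatory subunits was also set against the kinase inhibitor. KCl with TBB over KCl alone gave no called oligo over 5, 10 and 20 min in wt: 0 of 1457 (0%), with 26 at an unadjusted p under 0.05. The difference between the deletion over wt and TBB was called for 12 oligos (0.824%), 4 higher and 8 lower. All 12 were called in the deletion over wt, and they were 8 mating type oligos, COS8, SPL2 and TUB1 oligos 2 and 3. SPL2 was at -0.56 with TBB and TUB1 oligo 3 at 0.03. Without 20 min, 20 were called. The treatments were in different array sets, and no dose of TBB other than 20 uM was used with KCl.

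Genes with several oligos showed whether parts of a message moved apart. Each of 710 oligos, from 235 genes, was set against the average of its partners on the same gene, and the gap was tested. In the deletion's KCl response 18 were called (2.54%), in 12 genes, 7 higher and 11 lower than their partners. NMD2 oligo 3 was lower than the other NMD2 oligos by -1.36, -1.13, -1.35 and -0.47 at 5, 10, 20 and 40 min, with a mean of -1.08 ± 0.21 (SE; limma adjusted p = 0.00097). Oligo 1 of RPS22B, a ribosomal protein gene, was higher than its partners, at 1.04, 1.02, 0.90 and 0.83 (mean 0.95 ± 0.21, limma adjusted p = 0.003), and oligo 3 of the same gene was lower, with a mean of -0.81. RPL29 and RPL18B, of the large subunit, gave the same kind of pair. In RPL29 oligo 1 lay at 0.60 and oligo 2 at -0.75, and in RPL18B oligo 3 lay at 0.72 and oligo 2 at -0.73. The gaps of a gene are not independent, because a change in 1 oligo moves the gaps of its partners the other way. By themselves RPL29 oligo 1 and RPL18B oligo 3 averaged 0.36 and 0.19 and were not called. RPL29 oligo 2 and RPL18B oligo 2 averaged -0.66 and -0.77 and were called.

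**Figure D5:**
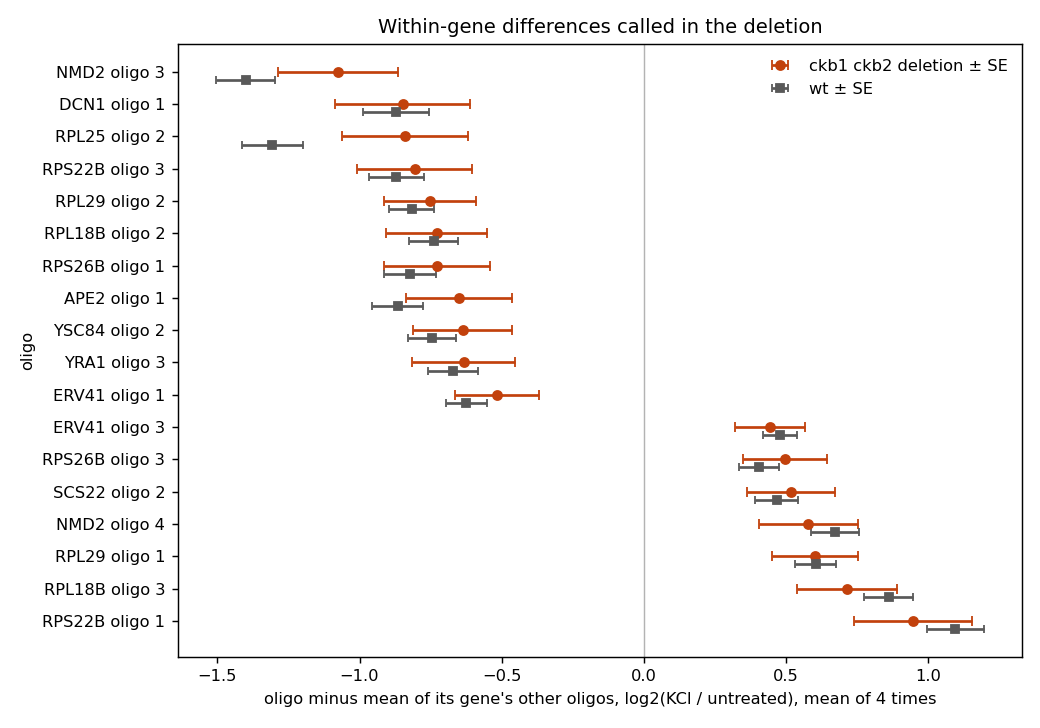
Gap between an oligo and the average of its partners on the same gene, in log2(KCl / untreated) averaged over 5, 10, 20 and 40 min, for the 18 oligos called in the deletion. Orange circles are the deletion and grey squares wt, each with its SE. Both strains lie on the same side of 0 in all 18, and NMD2 oligo 3 is at -1.08 in the deletion and -1.40 in wt.

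YRA1 oligo 3 was lower than its partners by -0.63, and RPL25 oligo 2 by -0.84. In wt 358 oligos were called (50.4%), in 175 genes, and NMD2 oligo 3 was at -1.40, RPS22B oligo 1 at 1.10 and YRA1 oligo 3 at -0.67. The test of the difference between the strains called 0 of 710 (0%), with 7 at an unadjusted p under 0.05. In the deletion over wt in KCl, 3 were called (0.423%). TUB1 oligo 1 lay below its partners by -0.86, RPS25B oligo 2 by -0.87, and RPS25B oligo 3 lay above them by 0.78. Which part of a message each oligo reads is not given with the arrays, so these differences are not read as splicing. The called share of 2.54% became 6.2% without 40 min, 0.423% without 20 min, 1.13% without 5 min or without 10 min, 17.5% with no block and 11.5% with the array set as block.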

How the data were processed

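The deposited values, per the labels those of channel 1 over channel 2, were read as log2 ratios for each spot. The base of the logarithm, the centring and any normalization within an array are not given in the sources used here, and base 2 was assumed. Array medians lay between -0.0391 and 0.0477. No spot intensities were used, so signal over background is unknown, and the number of arrays limits the precision. Spots repeat 1536 oligos in 6 copies, of which 1457 are named. Copies and dye orientations were averaged, and ratios turned to deletion or treated over control. limma 3.58.1 (R 4.3.3, statmod 1.5.0) fitted 1 mean for each of 195 groups over 304 identifiers, with the course as random block (correlation 0.43). P-values are two-sided and Benjamini-Hochberg adjusted over named oligos. In simulated data for the deletion's average over 1457 oligos, the fit recovered 46.3% of changes of 0.5 and 98.5% of changes of 1. It also called 8 oligos that were given no change. The simulated noise was drawn from the fit's own error and course correlation. These shares therefore cannot show whether that error holds for the deletion course, and the difference between the strains was not simulated. Oligos were named by size among those called with the same sign at all times (10 per direction), as the extremes of each list, and as 14 fixed genes. Any other gene was named after its values were seen. Members, lists and tests were chosen with earlier results of these data known. Alternatives covered the block, groups, dyes, scaling, filters and times. The 7 identifiers of unsettled direction were left out.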

Additional observations from a re-analysis of the deposited data

Results flagged for a closer look

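In wt groups of 4 replicates, 7 of 105 tested values of named oligos had 1 replicate far from the other 3, where chance gives about 1 in 20. RPL41A in KCl at 40 min was at 1.19 in array set A against 1.76 to 1.87. DIB1 at 10 min was at -0.73 in set G against -0.99 to -0.94. YNCG0028W at 40 min was at -1.06 in set H against -0.40 to -0.28. ENA1 at 40 min was at -0.0611 in set G against -0.40 to -0.35. RRP6 was at -0.56 in set G at 10 min against -0.24 to -0.21, and at 0.28 in set H at 40 min against -0.13 to -0.08. HAC1 oligo 3 at 20 min was at 0.0334 in set A against 0.11 to 0.12.

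The KCl response at 40 min differed between the strains for HMRA2, by -1.02, and for MATALPHA2, by -0.998, deletion minus wt. The strain difference in KCl differed from that at time 0 for 8 oligos. It was lower in KCl by -2.23 for MF(ALPHA)1, -1.57 for STE3 and -1.02 for HMRA2. For OST5 oligo 3 (-1.25) and MAF1 oligo 2 (-1.01), time 0 was measured in 1 dye orientation only, at 1.14 and 1.08. VPS29 oligo 1 (-0.91) was at 0.42 and 1.13 in the orientations of time 0. The mitochondrial tRNA gene tC(GCA)Q (-1.64) was at -0.57 and 3.12, and PRP5 (1.00), a splicing helicase, at 0.25 and -2.06, so the orientations of time 0 differed in sign for both.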

How the results depend on the processing

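No paired analysis was possible by replicate number because the labels carry none that the groups share. Paired by time within the array set, an alternative chosen after seeing the data, the comparison of KCl with 3-AT and rapamycin gave 5 calls in place of 0, with the same differences and 172 at an unadjusted p under 0.05. That alternative treats the times of 1 course as replicates, which they are not. Of 254 counts under alternatives, 181 stayed within 1.5 times of the reported one and 73 did not. Of 1631 values of named oligos, 50 lost a call, 14 gained one and none changed sign with a call. As reported, 56 oligos were called for the deletion in KCl, 22 for deletion over wt, 12 for its difference from TBB, 8 for that from time 0, and 0 for that from 3-AT and rapamycin, for deletion minus wt and for the change from 5 to 40 min. These 7 counts are named below as KCl, strain, TBB, time 0, treatments, difference and change. Comparisons at each time and within genes are given as the share of tests called: 1.29% for the deletion at each time, 0.0343% for deletion minus wt, 1.53% for deletion over wt, and within genes 2.54% for the deletion and 0.423% for deletion over wt.

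With no block, KCl was 291, difference 14, strain 73, treatments 1, time 0 17 and TBB 33, and the shares within genes were 17.5% and 1.41%. With the array set as block the same counts were 245, 36, 62, 4, 18 and 39, with 11.5% and 0.986%. With only the KCl groups and deletion over wt, difference was 1 and change 8, and the shares were 2.32%, 0.0858% and 3.28% at each time and 5.49% within genes. With the treated RNA in Cy5 only, KCl was 96, strain 60, time 0 3, TBB 55 and change 23, with 3.09%, 0.0858% and 3.84% at each time and 5.35% and 6.06% within genes. Cy3 only gave difference 1, strain 47, time 0 29 and TBB 37, with 0.309% for the deletion and 2.66% for deletion over wt at each time and 4.79% and 0.845% within genes. Scaled arrays gave KCl 114 and time 0 16, with 2.97% and 0% at each time and 5.21% and 0.704% within genes. Without the oligos moving with NMD2 oligo 3, KCl was 37, with 0.75% at each time and 1.57% within genes. With unsettled identifiers as labelled, KCl was 36, with 0.583% and 1.27%. Without the mating type list, an alternative chosen after seeing the data, strain was 11, time 0 4 and TBB 2, with 0% for deletion minus wt and 0.864% for deletion over wt at each time.

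Without 5 min, strain was 14 and the deletion within genes 1.13%. Without 10 min the shares within genes were 1.13% and 0.141%. Without 20 min, KCl was 32, TBB 20 and the share within genes 0.423%, and without 40 min that share was 6.2%. Leaving out a wt replicate gave a difference of 0 to 1 oligos and 0.0172% to 0.0343% at each time. Wt array set A alone gave 2 and 0.0858%, and set G alone 1 and 0.0172%. Sets F and H lack some of the times and gave no value alone. Medians of the spot copies, centring, a minimum of 3 copies, leaving out the noisiest oligos, and trend and robust moved no count by over 1.5 times, but without the noisiest oligos, with fewer tests, the share within genes for the deletion was 4.86%. The causes were not tested. No intensities were used, so what signal over background limits is unknown.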
